A study of Sus scrofa with 6 samples.

Results

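Genes of extracellular and lysosomal protein breakdown were examined in porcine granulosa cells (GCs), the somatic cells that surround the oocyte, after overexpression of retinol binding protein 4 (*RBP4*). Genes were taken by their symbols, namely the matrix metalloproteinases (*MMP*), their tissue inhibitors (*TIMP*) and *RECK*, the disintegrin metalloproteinases (*ADAM*, *ADAMTS*), the cathepsins (*CTS*), the serpins, all genes whose symbol begins with *CST*, and *PLAU*, *PLAUR*, *PLAT*, *A2M* and *CPAMD8*. This gave 90 of the 17950 genes in the deposited table, of which 10757 have a symbol. *PLAUR* was not found by symbol, nor were *TIMP2*, *TIMP3*, *CTSD*, *CTSK* and *CST3*, and nothing is said about them.

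The cells came from ovaries of Landrace pre-pubertal gilts and were infected for 72 h either with a lentivirus that carried porcine *RBP4* with the green fluorescent reporter ZsGreen (pLVX-*RBP4* group) or with the same vector without *RBP4* (CTRL group). Both groups therefore carried virus and reporter, and no uninfected cells were among the samples. The promoter that drove *RBP4* is not given in the sources used here. RNA of the whole culture was sequenced, with 3 libraries per group. For each gene the deposited table holds 1 FPKM value per group (a fragment count normalised for transcript length and sequencing depth), which the authors made from the libraries of that group. The spread between libraries is not known from these values, so no p-value, SD or SE stands beside any of them, and the words higher and lower describe the 2 group values only. The depth of the libraries is not in the table. *RBP4* itself had 1.10 FPKM in CTRL cells and 92.3 FPKM in pLVX-*RBP4* cells, in the direction of the labels.

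Of 11 granulosa cell markers, 6 were found by symbol, and *CYP11A1*, *GATA4*, *NR5A1*, *INHA*, *FST* and *FSHR* were all above 5 FPKM in both groups. *CYP11A1*, the enzyme that makes pregnenolone from cholesterol, had 672.9 FPKM in CTRL cells and 669.4 FPKM in pLVX-*RBP4* cells. Markers of other cells were also present. The 6 leukocyte markers found summed to 55.9 FPKM in CTRL cells and 63.2 FPKM in pLVX-*RBP4* cells, most of it *CD14*, while the leukocyte antigen *PTPRC* had 0.229 and 0.166 FPKM. The 8 fibroblast and smooth muscle markers summed to 916.1 and 1010 FPKM, most of it *ACTA2*. In RNA of a whole culture, fewer cells of a type and less RNA per cell cannot be told apart.

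Proteases of the pericellular space cut collagens, proteoglycans and cell surface proteins, and in the ovary such cutting accompanies the growth of follicles, the rupture of the follicle wall at ovulation and the breakdown of the corpus luteum. Many are made as inactive precursors and are held in check by inhibitors that bind them, TIMPs for the metalloproteinases and serpins for the plasminogen activators. Cathepsins act mainly in lysosomes, where most of them are cysteine proteases, and cystatins inhibit them.

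The sequences printed here are the RT-qPCR primers used for these transcripts. Those of *MMP1* and *CPAMD8* are shown because the study lists primers for no other of the 90 genes. These genes also had the largest differences upward and downward among the genes counted below. The primers, all 5′ to 3′ and with no part in capitals, were as follows.
*MMP1* forward: acttgtatcgtgtggctgct
*MMP1* reverse: gggacagctgaacatcacca
*CPAMD8* forward: gtatgtgttgccgaagtttgag
*CPAMD8* reverse: catgttgatcgttagagtcccc

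Expression was unevenly divided among the 90 genes. Of these, 60 averaged at least 1 FPKM over the groups, the limit used for all counts below, and 30 did not. The gene just inside the limit was *ADAM19*, with a mean of 1.15 FPKM, and the one just outside was *SERPINF1*, with 0.887 FPKM. *TIMP1* alone accounted for nearly all of the 44.2% of the summed FPKM that the TIMP and RECK genes took in CTRL cells and of the 43.7% in pLVX-*RBP4* cells. The cathepsins took 21.2% and 23.8%, mostly *CTSB*. Matrix metalloproteinases took 5.35% and 5.29%, and the *ADAM* and *ADAMTS* genes together 4.12% and 3.60%. Among the 60 genes past the limit, the order by level was the same in both groups within the MMP, ADAM, cathepsin, serpin and CST classes.

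**Figure D1:**
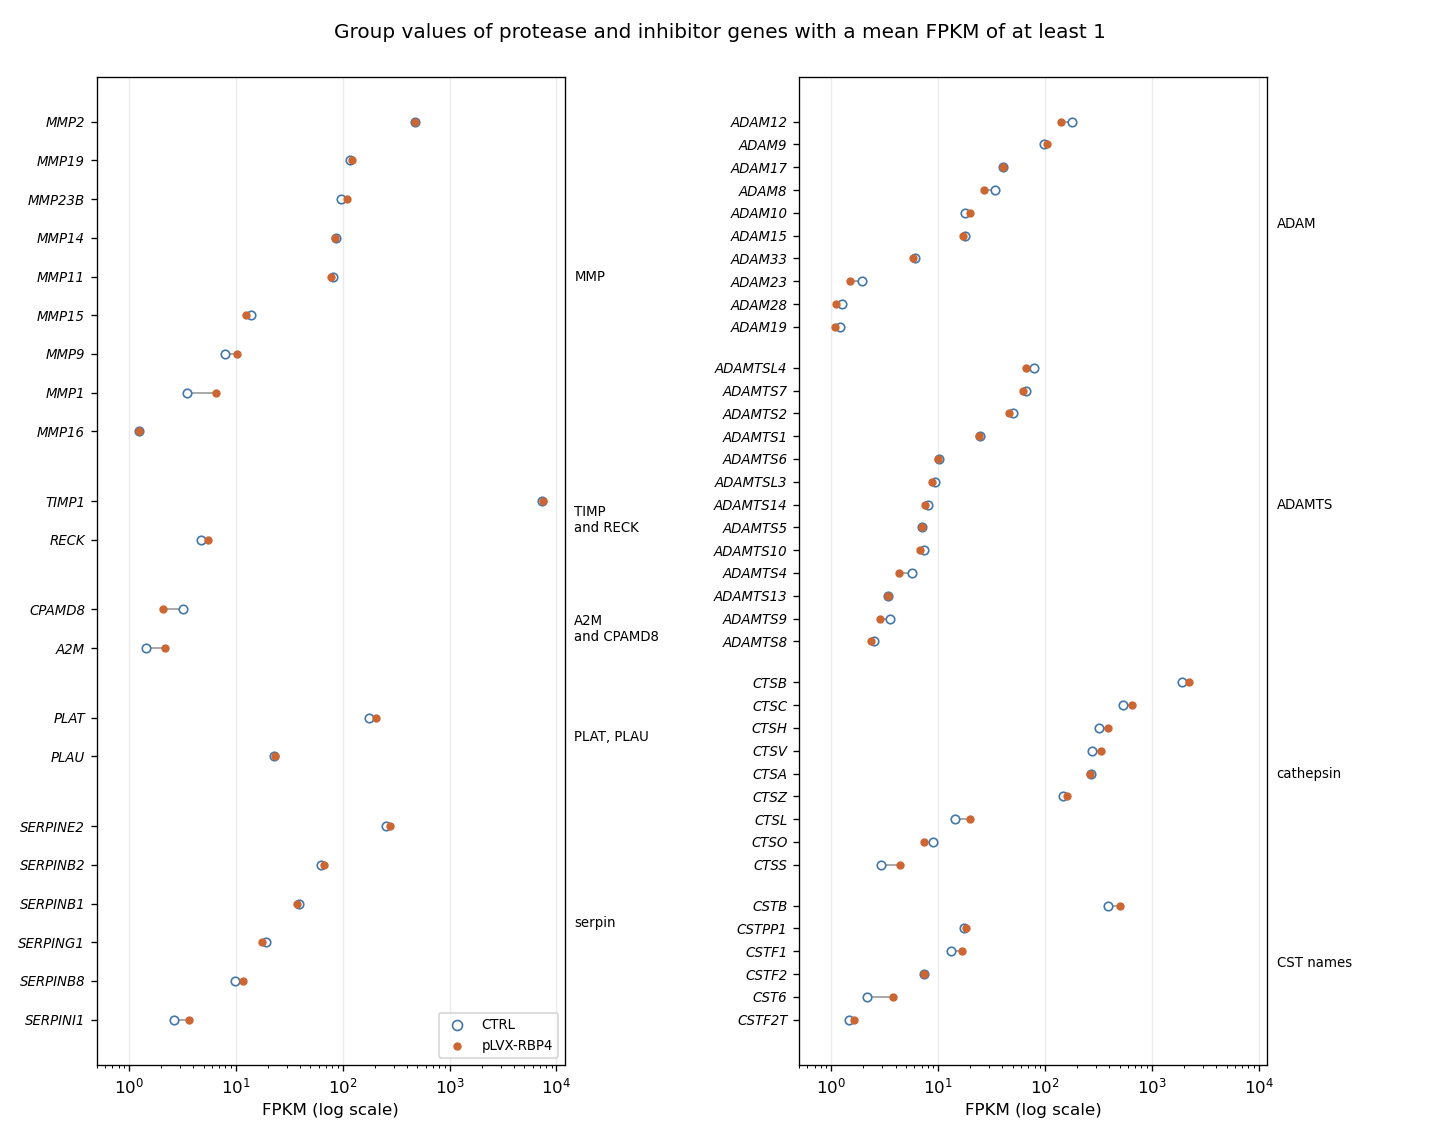
Group values (FPKM, log scale) of 59 of the 60 genes averaging at least 1 FPKM, by class. Open circles are the CTRL group, filled circles the pLVX-*RBP4* group, each 1 value made from 3 libraries, with no error known. Levels span from about 1 FPKM for *ADAM19* to 7459 FPKM for *TIMP1*, and for most genes the 2 circles overlap.

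As a whole the 60 genes were divided evenly. In the pLVX-*RBP4* group 30 were higher and 30 lower, against 50.2% of all 12382 genes averaging at least 1 FPKM that were higher. The difference of log2(FPKM + 1), called the log2 fold change here, had a median of 0.0013 among the 60 genes and 0.0014 among all genes. That scale understates the change of weakly expressed genes. A difference of at least 1.2-fold on it was reached by 12 genes upward, where 11.0% of all genes did so, and by 4 genes downward, where 8.63% of all genes did so. The higher genes were *MMP1*, *MMP9*, *A2M*, *SERPINI1*, *CTSC*, *CTSH*, *CTSV*, *CTSL*, *CTSS*, *CSTB*, *CSTF1* and *CST6*, and the lower ones *CPAMD8*, *ADAM12*, *ADAM8* and *ADAMTS4*. At 1.5-fold 2 genes remained, *MMP1* and *CST6*, both upward, where 1.49% of all genes were that much higher and 1.28% that much lower. The split depends on the scaling of the columns. Of the 60 genes, 40 were higher after rescaling to a common sum, where 64.9% of all genes were. After the same rescaling without the gene with the highest value 20 were higher, where 30.1% of all genes were and their median moved to -0.11. Over the deposited values and the other 4 scalings, 40 of the 60 genes kept 1 direction and 20 did not, so that higher and lower refer to the deposited values where no scaling is named.

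**Figure D2:**
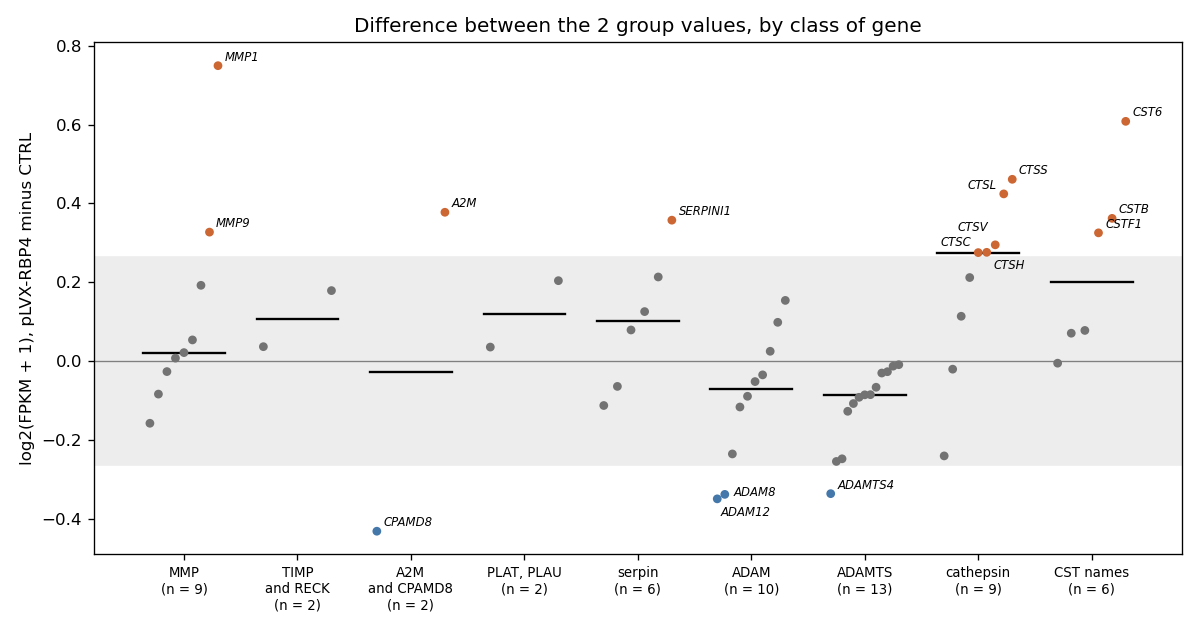
Difference of log2(FPKM + 1) between the pLVX-*RBP4* and CTRL values for 59 of the 60 genes, by class. Each point is a plotted gene, black lines are medians of the plotted genes, and the grey band marks less than 1.2-fold. The 12 genes above the band and the 4 below it are named, and 5 of the 12 are cathepsins.

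The plot of differences by class shows the matrix metalloproteinases spread on both sides of 0. Interstitial collagenase, *MMP1* (ENSSSCG00000014985), lies on chromosome 9 from 37358376 to 37367260 in Sscrofa10.2. It had 3.49 FPKM in CTRL cells and 6.55 FPKM in pLVX-*RBP4* cells, a ratio of 1.88 and a log2 fold change of 0.75, the largest among the 60 genes. The gelatinase *MMP9* had 7.93 and 10.2 FPKM (log2 fold change 0.33). The other gelatinase, *MMP2*, differed little between the groups, with 471.2 and 478.3 FPKM, so that its level was 135.1 times that of *MMP1* in CTRL cells and 73.1 times in pLVX-*RBP4* cells. These quotients within a group do not depend on the scaling between groups.

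The remaining metalloproteinases averaging at least 1 FPKM differed by less than 1.2-fold. *MMP19* had 117.1 and 121.5 FPKM and *MMP23B* 96.1 and 110.0 FPKM. *MMP14*, the membrane-bound protease that activates the MMP2 precursor, had 87.2 and 85.6 FPKM, and *MMP11* (stromelysin 3) 81.6 and 77.0 FPKM. The membrane-type proteases *MMP15* and *MMP16* had log2 fold changes of -0.16 and 0.0078. Of the 9 genes 6 were higher, where 50.2% of all genes were. Their median of 0.022 turned to -0.013 with a common upper quartile and to -0.064 with a common sum without the highest gene. The median of all genes was -0.033 and -0.11 there. The *MMP* median was above it under each scaling, an order nearly fixed because a scaling moves all genes together. As deposited, none of the 9 differed downward by 1.2-fold, where 8.63% of all genes did. With a common sum without the highest gene, *MMP15* passed that limit (-0.27).

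*TIMP1*, the secreted inhibitor of most metalloproteinases, was among the most abundant transcripts of these cells, with 7271 FPKM in CTRL cells and 7459 FPKM in pLVX-*RBP4* cells. It was above 99.9% of the 12382 genes by level. The summed FPKM of the 14 metalloproteinase genes was 880.5 in CTRL cells and 904.1 in pLVX-*RBP4* cells, and *TIMP1* stood at 8.26 and 8.25 times that sum. The quotient was thus nearly the same in both groups. *RECK*, a membrane-anchored regulator of metalloproteinases, was far lower, with 4.78 and 5.54 FPKM (log2 fold change 0.18).

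The 2 genes of the alpha-2-macroglobulin family, large proteins of which the founding member traps proteases, differed in opposite directions at low levels. *A2M* (ENSSSCG00000000660) had 1.46 FPKM in CTRL cells and 2.19 FPKM in pLVX-*RBP4* cells, a log2 fold change of 0.38. *CPAMD8* (ENSSSCG00000013869; chromosome 2, 60199864 to 60306278, Sscrofa10.2) had 3.19 and 2.11 FPKM, a ratio of 0.661 (log2 fold change -0.43), the largest difference downward among the 60 genes. *CPAMD8* was the higher of the pair in the CTRL group, and *A2M* in the pLVX-*RBP4* group.

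In the plasminogen activator system the tissue-type activator was the main protease transcript. *PLAT* had 176.4 FPKM in CTRL cells and 203.4 FPKM in pLVX-*RBP4* cells (log2 fold change 0.20), while *PLAU*, the urokinase-type activator, had 22.8 and 23.4 FPKM. The tissue-type activator stood at 7.73 times the level of the urokinase type in CTRL cells and at 8.68 times in pLVX-*RBP4* cells.

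Most serpins, inhibitors of serine proteases, showed small differences. *SERPINE2* (protease nexin 1) had 254.6 and 277.9 FPKM, *SERPINB2* (plasminogen activator inhibitor 2) 62.8 and 66.4 FPKM, and *SERPINB1* 38.9 and 37.2 FPKM. *SERPING1*, which encodes the inhibitor of the first complement proteases, had 19.2 and 17.7 FPKM, and *SERPINB8* 9.87 and 11.6 FPKM. Among serpins averaging at least 1 FPKM, *SERPINI1* (neuroserpin) alone differed by 1.2-fold. It had 2.63 FPKM in CTRL cells and 3.66 FPKM in pLVX-*RBP4* cells (log2 fold change 0.36). Of the 20 serpin genes, 13 were below a mean of 1 FPKM.

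The *ADAM* and *ADAMTS* genes were mostly lower in the pLVX-*RBP4* group, by small amounts. Of the 23 genes past the limit, 20 were lower, where 49.8% of all genes were lower. Among them were all 13 *ADAMTS* genes as deposited, and 9 of the 13 after rescaling to a common sum. Their joint median log2 fold change was -0.085. The number of lower genes ranged from 14, after rescaling to a common sum, to 22, after rescaling without the highest gene. Set against the median of all genes, 20 of 23 were lower under each of these scalings except the last, where 19 were. A scaling moves all genes together, so that these counts against the median can hardly change.

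*ADAM12*, which encodes a transmembrane or secreted metalloprotease, was the highest of the *ADAM* genes and had 179.3 FPKM in CTRL cells and 140.6 FPKM in pLVX-*RBP4* cells, a ratio of 0.784 (log2 fold change -0.35). *ADAM8* had 33.9 and 26.7 FPKM (-0.34). The sheddases were slightly higher as deposited, *ADAM10* with 17.7 and 19.8 FPKM (0.15) and *ADAM17*, the enzyme that releases TNF and ligands of the EGF receptor, with 40.2 and 40.9 FPKM (0.025). *ADAM9*, with 97.8 and 104.8 FPKM (0.099), was the third *ADAM* gene that was higher. Of these 3, *ADAM10* was higher under each scaling, while *ADAM17* turned to -0.012 with a common upper quartile and, without the highest gene, *ADAM17* turned to -0.091 and *ADAM9* to -0.020. *ADAM15*, *ADAM33*, *ADAM23*, *ADAM28* and *ADAM19* had log2 fold changes from -0.24 to -0.035.

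Within the *ADAMTS* class, secreted proteases that bind to the matrix, the differences ran from -0.34 to -0.0089. *ADAMTS4*, an aggrecanase, had 5.67 FPKM in CTRL cells and 4.28 FPKM in pLVX-*RBP4* cells, a ratio of 0.756. It was the single gene of the class past 1.2-fold on the log2(FPKM + 1) scale. *ADAMTS1*, known for its induction in GCs before ovulation, had 24.5 and 24.0 FPKM, and *ADAMTS5* 7.12 and 7.05 FPKM. These proteoglycan-cleaving relatives of *ADAMTS4* thus differed by little, whereas *ADAMTS9* had 3.55 and 2.84 FPKM (-0.25).

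The procollagen-processing enzymes *ADAMTS2* and *ADAMTS14* had 50.7 and 46.3 FPKM (-0.13) and 8.13 and 7.61 FPKM (-0.085). *ADAMTS7* had 66.5 and 62.3 FPKM. The highest value of the class belonged to *ADAMTSL4*, with 79.7 and 66.6 FPKM (-0.25). The *ADAMTSL* proteins have no protease domain, and without them all 11 *ADAMTS* genes were lower, with a median of -0.085.

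**Figure D3:**
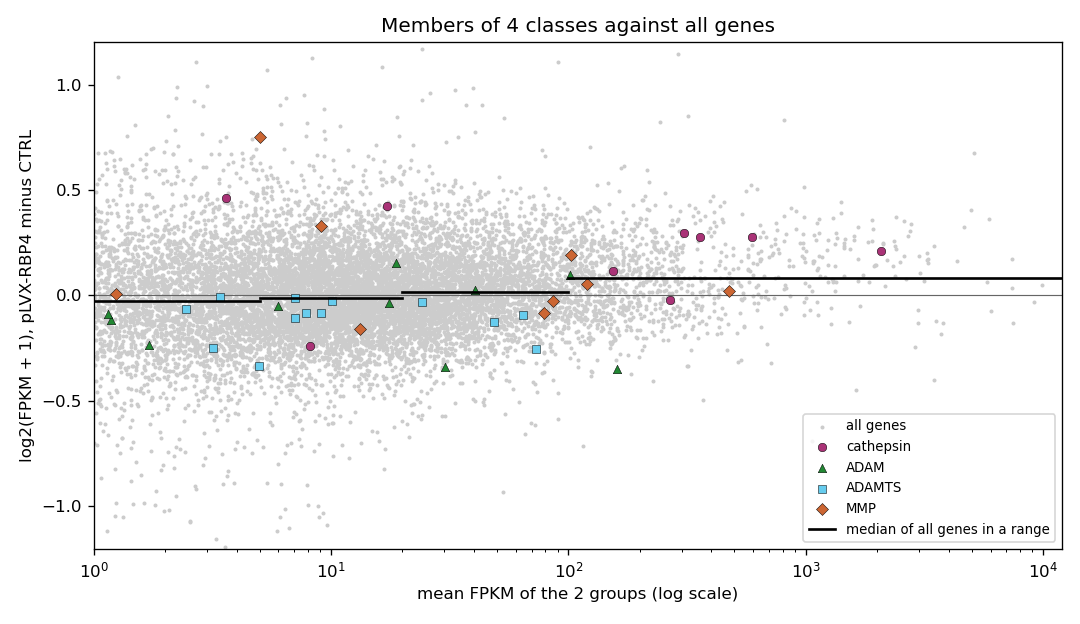
Difference of log2(FPKM + 1), pLVX-*RBP4* minus CTRL, against the mean FPKM of the 2 groups (log scale), for all 12382 genes in grey and for 4 classes in colour. Black lines are medians of all genes in 4 ranges of level, and 95 genes lie outside the axes. The *ADAMTS* squares all lie below 0, and 7 of the 9 cathepsins lie above 0, as deposited.

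Cathepsins formed the class with the most genes past 1.2-fold as deposited. Of the 9 genes averaging at least 1 FPKM, 7 were higher in the pLVX-*RBP4* group as deposited and 6 to 8 under the other scalings. As deposited 5 reached 1.2-fold, as against 5 with a common median and 6 with a common sum, but 2, *CTSL* and *CTSS*, with a common upper quartile and with a common sum without the highest gene. The share of all genes that much higher was 11.0% as deposited, 11.3% with a common median and 17.3% with a common sum. It was 8.68% with a common upper quartile and 5.14% with a common sum without the highest gene. Set against the median of all genes, 7 of 9 were higher under each scaling. Each scaling multiplies a whole column by a constant, so this count is nearly fixed by construction. Their median log2 fold change was 0.28, against 0.0014 for all genes. Their summed FPKM, over all 10 cathepsin genes, was 3496 in CTRL cells and 4058 in pLVX-*RBP4* cells, a ratio of 1.16.

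*CTSB* (ENSSSCG00000023666), a lysosomal cysteine protease, was the most abundant, with 1916 FPKM in CTRL cells and 2220 FPKM in pLVX-*RBP4* cells (log2 fold change 0.21). *CTSC*, the dipeptidyl peptidase that activates serine proteases of leukocyte granules, had 539.1 and 652.8 FPKM (0.28). *CTSH*, an aminopeptidase, had 323.3 and 391.7 FPKM (0.28). These 3 genes were the highest of the class in both groups, and all were higher with *RBP4*.

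*CTSV* and *CTSL* encode closely related proteases, and how reads were divided between them is not known. *CTSV* had 275.0 FPKM in CTRL cells and 337.6 FPKM in pLVX-*RBP4* cells (log2 fold change 0.30), and *CTSL* 14.6 and 19.9 FPKM (0.42). Both were higher, and the CTSV level was 18.9 and 17.0 times that of CTSL. The largest difference of the class belonged to *CTSS*, a protease of antigen-presenting cells, with 2.89 and 4.36 FPKM, a ratio of 1.51 (log2 fold change 0.46).

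Markers of other cells were on both sides of 0. The 4 leukocyte markers past the limit, among them *CD14* with 42.9 and 48.9 FPKM, were higher by log2 fold changes of 0.090 to 0.18. *CTSS* and *MMP9* had log2 fold changes of 0.46 and 0.33. The leukocyte marker *SPI1* turned to -0.014 with a common sum without the highest gene. Of the fibroblast and smooth muscle markers, 4 of 7 past the limit were higher and 3 lower. *LUM* and *DCN* had log2 fold changes of 0.37 and 0.32, and *MYH11*, *PDGFRA* and *PDGFRB* of -0.32, -0.16 and -0.089. The endothelial markers *KDR* and *PECAM1* had -0.17 and -0.028, the theca marker *PTCH1* -0.14 and the epithelial marker *KRT8* 0.021. Of the 6 granulosa cell markers, 1, *FST*, was higher as deposited, where 50.2% of all genes were. With a common sum *CYP11A1*, *GATA4* and *INHA* turned to 0.072, 0.044 and 0.023, while *NR5A1* and *FSHR* were lower under each scaling. *ACTA2*, *PECAM1* and *KRT8* also changed sign between scalings. The part of cells other than GCs in the cathepsin, *MMP1* and *MMP9* values was not tested.

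The other cathepsins differed less. *CTSZ* had 147.3 and 159.5 FPKM (log2 fold change 0.11). *CTSA*, a serine carboxypeptidase that protects other lysosomal enzymes, had 268.6 and 264.9 FPKM (-0.020), and *CTSO* 8.95 and 7.42 FPKM (-0.24). These were the 2 cathepsins that were lower as deposited, and *CTSA* turned to 0.059 with a common sum.

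Level and direction went together among all genes, and most cathepsins are highly expressed. Of the 16 members with a mean of at least 100 FPKM, 13 were higher, and 6 of the 16 are cathepsins. Highly expressed genes as a whole were more often higher too. Among the 1092 genes with a mean of at least 100 FPKM, 67.1% were higher, with a median log2 fold change of 0.084, and 15.8% were higher and 2.47% lower by 1.2-fold. The median of 0.28 over all 9 cathepsins, of which 6 are in that level range, stood above the median of the range as well. *CTSL*, *CTSO* and *CTSS* had lower means of 17.2, 8.19 and 3.63 FPKM. The median of all genes was -0.012 in the range of *CTSL* and *CTSO* and -0.026 in that of *CTSS*. *CTSL* and *CTSS* were above these medians, and *CTSO*, with -0.24, was below. The part of level in the cathepsin values was not tested.

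Genes whose symbol begins with *CST* include cystatins and other genes. The 2 cystatins past the limit were both higher in the pLVX-*RBP4* group. *CSTB* (ENSSSCG00000027357), a cytosolic inhibitor of cathepsins, had 389.3 FPKM in CTRL cells and 500.7 FPKM in pLVX-*RBP4* cells, a ratio of 1.29 (log2 fold change 0.36). *CST6*, a secreted inhibitor of cathepsins and legumain, had 2.16 and 3.82 FPKM, a ratio of 1.77 (0.61). *CTSB* and *CSTB* were thus both higher. Both average at least 100 FPKM, a range in which 67.1% of all genes were higher, with a median log2 fold change of 0.084. The *CTSB* level was 4.92 times that of *CSTB* in CTRL cells and 4.43 times in pLVX-*RBP4* cells.

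The remaining cystatin, *CST7*, was listed at 0 in both groups. *CSTF1*, *CSTF2* and *CSTF2T* encode subunits of the cleavage stimulation factor of mRNA 3′ ends, and *CSTPP1* a protein of centriolar satellites, so these 4 share the letters but not the function. *CSTF1* had 13.2 and 16.7 FPKM (log2 fold change 0.33) and *CSTPP1* 17.3 and 18.3 FPKM (0.071). Without these 4 genes, 27 of 56 genes were higher, and 11 were higher and 4 lower by 1.2-fold. The shares among all genes were 50.2%, 11.0% and 8.63%.

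**Figure D4:**
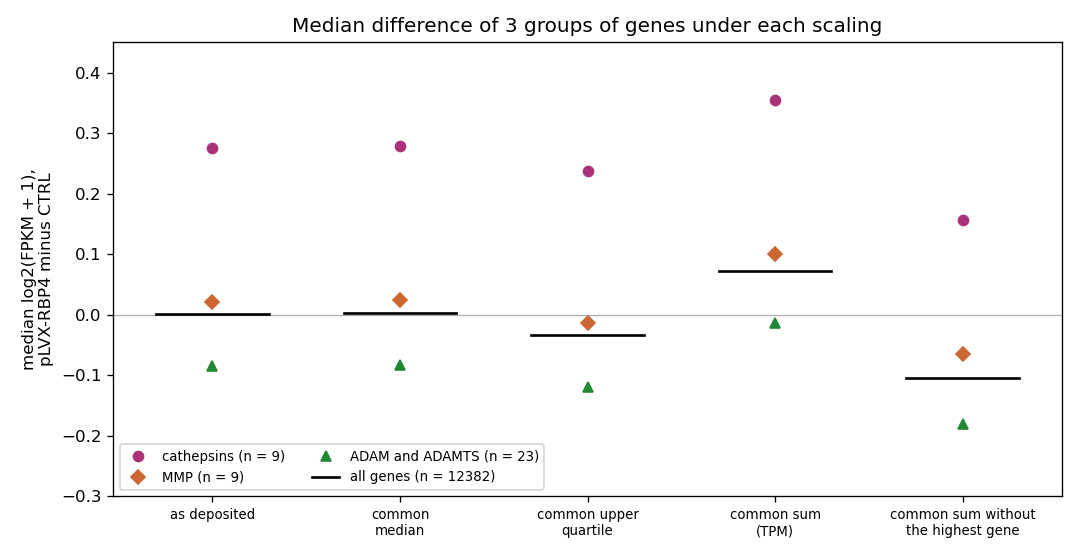
Median difference of log2(FPKM + 1), pLVX-*RBP4* minus CTRL, of 3 groups of genes under the deposited values and 4 other scalings, with the median of all 12382 genes as a black line. The median of the 9 cathepsins lies above that of all genes and the median of the 23 *ADAM* and *ADAMTS* genes below it in each of the 5 columns. A scaling moves all genes together, so the order of the medians is nearly fixed and the columns are not separate checks. The *MMP* median also lies above that of all genes in each column, and both of these change sign between columns.

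Members below a mean of 1 FPKM were close to the lower end of the values, and 20 of the 30 had a mean under 0.1 FPKM. They were divided into 16 higher, 13 lower and 1 at 0 in both groups. *MMP17*, a membrane-anchored metalloproteinase, had 0.493 FPKM in CTRL cells and 0.980 FPKM in pLVX-*RBP4* cells. *SERPINF1*, which encodes pigment epithelium-derived factor, had 1.14 and 0.633 FPKM. In the CTRL group 6 genes were listed at 0 that had values from 0.0277 to 0.129 FPKM in the other group, namely *MMP3*, *MMP13*, *SERPINA1*, *SERPINA3-2*, *SERPINA7* and *SERPINB5*. The reverse held for *ADAM32*, *CTSW*, *SERPIND1* and *SERPINB10*, with 0.0247 to 0.0723 FPKM in the CTRL group. No fold is given for these 10 genes.

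A list of 47 other genes of pericellular and lysosomal proteolysis was compared, of which 39 were found by symbol and 31 averaged at least 1 FPKM. In the pLVX-*RBP4* group 15 were higher and 16 lower, with a median log2 fold change of -0.029, and 3 reached 1.2-fold in each direction. Among all genes 50.2% were higher, and 11.0% were higher and 8.63% lower by 1.2-fold, so these counts were near the shares of all genes. *LGMN*, which encodes the lysosomal protease legumain that processes several cathepsins, had 185.8 FPKM in CTRL cells and 238.8 FPKM in pLVX-*RBP4* cells (0.36). *PLGRKT*, a plasminogen receptor, had 27.3 and 35.2 FPKM (0.36), and the membrane peptidase *MME* 5.38 and 6.84 FPKM (0.30). The lower genes were all below 5 FPKM. They were *SPINT1*, an inhibitor of membrane serine proteases, with 2.80 and 1.95 FPKM (-0.36), *PAPPA*, a protease of IGF binding proteins, with 2.84 FPKM in CTRL cells (-0.35), and *SPOCK2*, a matrix proteoglycan, with 1.93 and 1.31 FPKM (-0.34).

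Other genes of lysosomes and of protein traffic to them were on both sides of 0. The lysosomal membrane proteins *LAMP1* and *LAMP2* had log2 fold changes of 0.027 and -0.029. *GNPTAB* and *GNPTG*, which encode subunits of the enzyme that tags lysosomal proteases with mannose phosphate, had -0.19 and 0.26, and the mannose phosphate receptor *IGF2R* -0.14. *TPP1*, a lysosomal serine protease, had 77.7 and 70.9 FPKM (-0.13). *TFEB*, a transcription factor of lysosomal genes, had 8.05 and 8.12 FPKM.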

How the data were processed

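The authors deposited 1 table of FPKM values with 2 columns of values, 1 per group of 3 libraries, and both were used, so that 0 columns were left out. Per the methods of the study, paired-end reads were aligned to Sscrofa10.2 with TopHat2 and FPKM and group comparisons came from Cuffdiff of Cufflinks. Versions and the annotation release are not given in the sources used here. Depth per library is not in the table and was not used, and a group value hides differences between libraries. FPKM values sum to different totals per column, so that a few very abundant genes can shift all other genes.

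Symbols came from a table of Ensembl gene names, which named 87 of the 90 members, and from the gene tables of the study for the other 3, and loci of *MMP1* and *CPAMD8* from the gene tables of the study. The difference of log2(FPKM + 1) was computed for genes averaging at least 1 FPKM, and 1.2-fold and 1.5-fold on that scale were counted. With 1 value per group no model could be fitted and no test was made. Members with both values named are those past 1.2-fold, the 3 highest of each class, and *MMP1* and *CPAMD8*, 1 of these excepted that is counted but not reported here, while further members were named after their values were seen. The members and lists were chosen with earlier results of these data known. The settings varied were the pseudocount (0.1 and 0.01), the filter (none, or an average of at least 5 FPKM), the scaling to a common median, upper quartile or sum, or to a common sum without the highest gene, a mean in place of the median, names from the gene name table alone and, added after seeing the data, the members without 4 *CST* genes that are no cystatins. Python 3.11.15, numpy 2.4.6, pandas 2.3.3 and matplotlib 3.10.9 were used.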

Additional observations from a re-analysis of the deposited data

How the results depend on the processing

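No paired analysis was possible because the 2 deposited columns hold 1 value per group and carry no replicate numbers. Leaving out a library was not possible for the same reason. Of 192 values of 32 named members under other pseudocounts and scalings, 156 moved by less than 0.1 on the log2 scale and 36 moved more. None of those past 1.2-fold changed sign, but none could. A pseudocount cannot change a sign, and each scaling shifted genes by less than the 1.2-fold limit. The 4 members lower by 1.2-fold became 7 with a pseudocount of 0.1, 7 with 0.01, 7 with a common upper quartile and 9 with a common sum without the highest gene, and 2 where an average of 5 FPKM was required, so that fewer genes are counted. Of all genes, 8.63% were that much lower as deposited, and 11.4%, 11.7%, 11.2%, 19.5% and 6.56% under these 5 settings in turn. The 12 higher members became 6 with a common sum without the highest gene, where the share of all genes fell from 11.0% to 5.14%. With no filter on low values 46 of 89 members above 0 were higher, where 49.4% of all genes were. Where an average of 5 FPKM was required, 13 of 16 *ADAM* and *ADAMTS* genes were lower, while 52.0% of all genes were higher. The median of all members turned to -0.027 with a common upper quartile, to -0.099 with a common sum without the highest gene and to -0.011 without the 4 *CST* genes that are no cystatins. The median of the *MMP* genes turned to -0.013 and -0.064 with the first and second of these, and that of the cathepsins moved to 0.16 with the second. Both scalings shift all genes by construction, and the median of all genes was -0.033 and -0.11 under them, with the median of the members 0.0055 and 0.0058 above it. The causes of the other changes were not tested. Read counts are not in the table, so the counting error of members with low values was not computed.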

Other observations

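Among protein-coding genes of the RefSeq annotation of Sscrofa11.1, 86 of the 90 members were found by symbol, and 6 pairs of them are direct neighbours. The chain *MMP1*, *MMP3*, *MMP12* and *MMP13* on chromosome 9 makes up 3 of these pairs. *MMP1* had 3.49 FPKM in CTRL cells and 6.55 FPKM in pLVX-*RBP4* cells, while the other genes of the chain had at most 0.129 FPKM in either group. *MMP3* and *MMP13*, the stromelysin and collagenase of the chain, were listed at 0 in CTRL cells, and *MMP12*, the macrophage elastase, had 0.129 FPKM there and 0.0217 FPKM in the pLVX-*RBP4* group. On chromosome 1, *SERPINB2* had 62.8 and 66.4 FPKM beside *SERPINB10*, which had 0.0259 FPKM and was listed at 0 with *RBP4*. *ADAMTS8*, with 2.54 and 2.38 FPKM, lies next to *ADAMTS15*, with 0.286 and 0.181 FPKM. In none of the 6 pairs did both genes have a mean FPKM of at least 1.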
